A study of Mus musculus with 10 samples.

Results

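The Lce1 genes described here are 10 rows of a table of 56691 mouse genes: Lce1a1, Lce1a2, Lce1b, Lce1c, Lce1d, Lce1e, Lce1f, Lce1g, Lce1h and Lce1k. They were taken by symbol, and they were chosen with their lower level in the knockout already known from these libraries, so their genotype difference is given below as a description and without a p-value. The table holds 14 Lce1 symbols, and the 4 outside the selection, Lce1i, Lce1j, Lce1l and Lce1m, are given beside them. The RNA came from mouse esophageal epithelium, in 5 wild-type libraries and 5 libraries of p63CreERT2;Mst1loxp/loxp;Mst2-/- mice, called knockout here. In the knockout the Cre recombinase is named for p63, the transcription factor of basal keratinocytes, and is activated by tamoxifen, Mst1 carries loxP sites, and Mst2 is deleted outright (Mst2-/-). Mst1 and Mst2, listed as Stk4 and Stk3, are the kinases of the Hippo pathway. Tamoxifen was given to mice of both groups, at 100 mg/kg in 3 doses that were 2 weeks apart, and RNA was taken after about 8 weeks. The wild-type libraries are labelled without the Cre or the altered alleles, so an effect of the kinases cannot be told apart from one of the Cre or of neighbouring alleles. Whether each library came from its own mouse is not stated in the labels, so p-values measure only the spread between libraries, which may be technical in part.

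Late cornified envelope (LCE) proteins are small proteins, rich in cysteine and glycine, that are made late in the differentiation of squamous epithelia and are crosslinked by transglutaminases into the protein envelope under the membrane of the outermost cells. Their genes lie side by side in the epidermal differentiation complex, together with those of loricrin, involucrin, the small proline-rich proteins and the fused-type S100 proteins. Lce1 genes are known chiefly from cornified skin, and the mouse esophagus is lined by a cornified squamous epithelium as well.

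In the GRCm38 annotation the 10 genes lay on chromosome 3 between 92646535, the start of Lce1a1, and 92807891, the end of Lce1k, and each had 2 exons. Lce1c lay on the plus strand and the other 9 on the minus strand. Lce1i and Lce1j lay between Lce1h and Lce1k, while Lce1l and Lce1m lay beyond Lce1k, with Kprp, 2310050C09Rik, the 6 Lce3 genes and Crct1 among them. The genes were close copies of each other. Transcripts of the 10 were 78.6% to 91.6% identical in pairs, with Lce1g and Lce1h the closest pair, and Lce1k was at most 81.9% identical to any other.

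The sequence just upstream of the start sites is shown because these genes varied together across libraries, as described below, and because Lce1k had the largest difference. Whether these sequences bear on either was not tested. RefSeq promoters on GRCm38.p6 were matched for 9 of the 10 genes, all but Lce1f. Over the 250 bases upstream, Lce1k had a median identity of 64.2% to the other 8 (60.8% to 66.4%), while the medians of those 8 were 69.4% to 74.4%. Outside the selection, the promoters of Lce1l and Lce1m were further off, with medians of 58.8% and 60%, and those of Lce1i and Lce1j had medians of 70.4% and 68.8%. The 110 bases before the start are printed 5′ to 3′ for 5 genes, with capitals for those 8-base words that at least 6 of the 9 promoters hold. They lie at chr3:92709075-92709184 on the minus strand (Lce1e), chr3:92656927-92657036 on the minus strand (Lce1b), chr3:92679137-92679246 on the plus strand (Lce1c), chr3:92752339-92752448 on the minus strand (Lce1g) and chr3:92807892-92808001 on the minus strand (Lce1k).
Lce1e: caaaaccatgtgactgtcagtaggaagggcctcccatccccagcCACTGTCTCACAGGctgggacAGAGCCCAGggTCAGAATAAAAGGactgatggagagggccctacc
Lce1b: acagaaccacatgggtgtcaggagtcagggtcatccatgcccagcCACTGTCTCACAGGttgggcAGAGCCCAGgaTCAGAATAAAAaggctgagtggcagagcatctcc
Lce1c: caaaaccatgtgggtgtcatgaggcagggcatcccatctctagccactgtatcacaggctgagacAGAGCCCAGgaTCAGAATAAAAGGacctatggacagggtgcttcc
Lce1g: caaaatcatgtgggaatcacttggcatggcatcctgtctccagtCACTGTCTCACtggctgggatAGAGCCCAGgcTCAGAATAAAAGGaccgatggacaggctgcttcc
Lce1k: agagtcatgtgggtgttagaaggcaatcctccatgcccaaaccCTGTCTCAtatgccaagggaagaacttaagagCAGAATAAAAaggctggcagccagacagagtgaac

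Of the 14 shared words, which overlap each other, Lce1e held 14, Lce1b 13, Lce1g 11, Lce1c 7 and Lce1k 4, the fewest of the 9 promoters. CTGTCTCA stood in 8 of the 9 promoters, Lce1k included, and in 0.843% of 32851 mouse promoters, at a median of 64 bases before the start. AGAATAAA stood in 7 of the 9, Lce1k included, and in 0.743% of all promoters, at a median of 32 bases before the start. The words were found by comparing these promoters, so their number there is a description. Named motifs were also searched in the 250 bases upstream, on both strands. TGANTCA, the AP-1 motif, was in 0 of the 9 and in 6.75% of all promoters. GGAATG, the motif of the TEAD factors through which Hippo signalling acts on genes, was in 2 of the 9 (Lce1c and Lce1g) and in 12.6% of all. TGACNNNGC, the antioxidant response element bound by NRF2, was in 1 (Lce1d) against 10.2%. AGGTCA, bound by nuclear receptors such as Rora, was in 3 (Lce1c, Lce1d and Lce1k) against 14%, CACGTG, the E-box bound by clock factors, in 0 against 6.02%, and TATAAA in 1 (Lce1d) against 12.4%. A match is a string of letters and not a bound site.

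Levels are FPKM, that is fragments scaled to the length of the gene model and to the library's total. Different genes are thus on a common scale, but levels of near copies are uncertain where they share sequence, as described below. The total depth, estimated from the steps of the FPKM values, was 13070000 to 16440000 fragments per library, and 10878 to 11606 genes reached 1 FPKM. Of the targeted kinases, Stk3 was 2.08 to 3.48 FPKM in wild type and 0.05 to 0.25 in the knockout (limma adjusted p = 2.78e-06), and Stk4 was 17 to 22.7 and 12.2 to 17.4 (adjusted p = 0.123). Krt4 and Krt13, keratins of the suprabasal esophageal layers, were abundant in every library, with a sum of 57500 FPKM or more. Of 17 markers of fibroblasts, muscle and endothelium, only Dcn, a proteoglycan of connective tissue, reached 1 FPKM. Their sum was 4.82 to 13.9 FPKM in wild type and 0.11 to 1.8 in the knockout, and without Dcn 0.26 to 0.5 and 0.05 to 0.68. Col1a2, Des, Cdh5 and Kdr were at 0 in all libraries. The 7 leukocyte markers summed to 8.34 to 17 FPKM in wild type and 12.7 to 21.9 in the knockout.

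Each of the 10 Lce1 genes was a well expressed transcript in wild-type epithelium and had a lower mean in the knockout. Lce1k was lowest relative to wild type, at 6.58% of the wild-type mean, and the other 9 were between 35.3% (Lce1a2) and 66.3% (Lce1g), with a median of 41.7% over the 10. Summed over the 10 genes, the transcript made up 4655, 3526, 4142, 3850 and 6794 FPKM in wild-type libraries 1 to 5 and 529.9, 1336, 2254, 3603 and 1784 FPKM in knockout libraries 1 to 5. The sums overlapped in 1 library, since knockout library 4 stood above wild-type library 2. As a share of the table's total FPKM, the 10 genes took 0.846% to 1.73% in wild type and 0.132% to 0.904% in the knockout. In bulk RNA, fewer cells of the layer that makes these transcripts and less transcript per cell cannot be told apart.

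**Figure D1:**
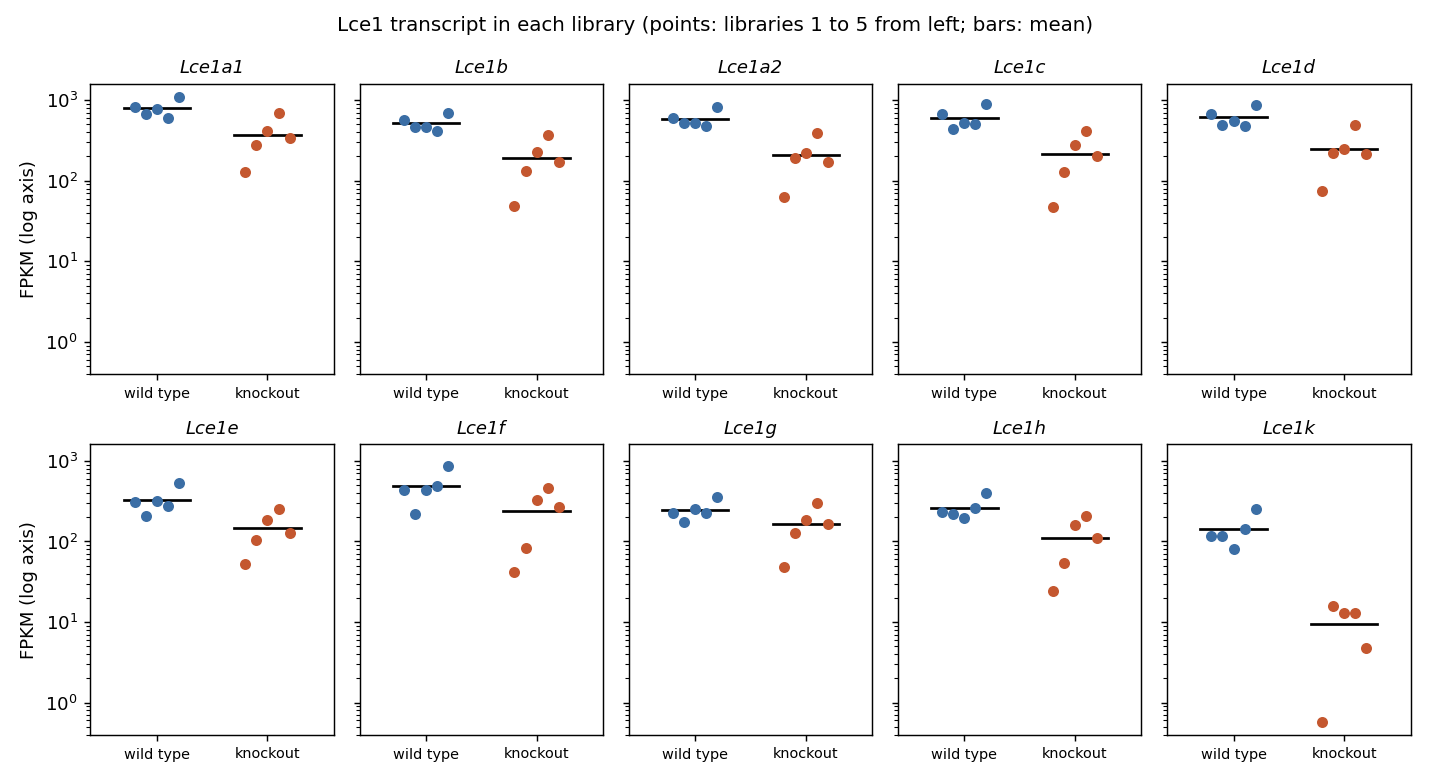
FPKM (log axis) of the 10 Lce1 genes, in their order on the chromosome, in 5 wild-type and 5 knockout libraries; each point is a library, numbered 1 to 5 from left to right, and bars are means. Knockout library 1 is the lowest in all 10 panels, wild-type library 5 the highest, and Lce1k has the widest gap between the groups.

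Lce1k stood apart from the other 9. It was 119, 118, 79.8, 143 and 250 FPKM in wild-type libraries 1 to 5 and 0.58, 15.8, 12.8, 12.8 and 4.71 FPKM in knockout libraries 1 to 5. Every knockout library was far below every wild-type library, with the lowest wild-type value in library 3 and the highest knockout value in library 2. The difference was -4.09 on the log2(FPKM + 1) scale (SE 0.62, 5 libraries a group), from 142 ± 64.7 to 9.33 ± 6.39 FPKM (mean ± SD, n = 5). The value in knockout library 1 rests on about 5 fragments, against 47 to 148 in the other knockout libraries and 762 to 2729 in wild type. Without that library the knockout mean was 8.12% of wild type.

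Lce1k had the lowest mean of the 10 in both genotypes, and its share of the family differed between them. Its share of the summed FPKM of the 10 genes was 1.93% to 3.7% in wild type and 0.109% to 1.18% in the knockout, ranges that do not overlap. Relative to the mean log2(FPKM + 1) of the other 9 genes in the same library, Lce1k was at -2.38 to -1.45 in wild type and at -5.11 to -2.99 in the knockout. Lce1g moved the other way within the family, with shares of 4.78% to 6.15% in wild type and 8.11% to 9.64% in the knockout. These shares use the same contrast by which the genes were selected and are not tested.

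The genes of highest level, Lce1a1 to Lce1d, were each at 409.7 FPKM or more in every wild-type library. Lce1a1 was 821, 676, 774, 609 and 1101 FPKM in wild-type libraries 1 to 5 and 129, 277, 413, 696 and 342 in knockout libraries 1 to 5. Knockout library 4 was within the wild-type range for this gene, and the other 4 were below it (log2 difference -1.27, SE 0.37). Lce1a2, the nearest copy of Lce1a1 by transcript, was 600, 522, 526, 472 and 821 FPKM in wild type and 63.4, 193, 219, 394 and 169 in the knockout, with no overlap (log2 difference -1.69, SE 0.39). Lce1b was 567, 459, 470, 410 and 700 FPKM in wild type and 48.3, 131, 229, 367 and 173 in the knockout, again without overlap (log2 difference -1.71, SE 0.44). Lce1c, the gene on the opposite strand, was 675, 442, 529, 500 and 896 FPKM in wild type and 46.9, 129, 278, 420 and 205 in the knockout, without overlap (log2 difference -1.78, SE 0.50). For all these genes the order of the knockout libraries was the same at its ends: library 1 was lowest and library 4 highest. Lce1d was 678, 487, 551, 473 and 869 FPKM in wild type and 74.5, 220, 251, 493 and 216 in the knockout, where library 4 lay among the wild-type values (log2 difference -1.48, SE 0.41).

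Lce1e to Lce1h had lower or more variable levels, and their groups overlapped. Lce1e was 305, 209, 321, 274 and 528 FPKM in wild-type libraries 1 to 5 and 52.4, 104, 186, 254 and 129 in the knockout, with only knockout library 4 inside the wild-type range (log2 difference -1.29, SE 0.39). Lce1f was the most variable of the 10 in FPKM in wild type, at 437, 218, 439, 486 and 867, and was 41.8, 83.5, 324, 461 and 269 in the knockout (log2 difference -1.38, SE 0.63). Knockout libraries 3, 4 and 5 were within the wild-type range of Lce1f. Lce1g had the smallest difference, from 223, 175, 255, 225 and 362 FPKM in wild type to 48.6, 129, 183, 297 and 164 in the knockout (log2 difference -0.76, SE 0.40). Knockout libraries 3 and 4 were inside its wild-type range. Lce1h was 230, 222, 197, 259 and 400 FPKM in wild type and 24.3, 53.4, 158, 207 and 111 in the knockout, where library 4 was inside the wild-type range (log2 difference -1.54, SE 0.51).

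By mean level the wild-type order was Lce1a1, Lce1d, Lce1c, Lce1a2, Lce1b, Lce1f, Lce1e, Lce1h, Lce1g and Lce1k, from 796 to 142 FPKM. Neighbours in that order had overlapping ranges throughout, and within single libraries the order of neighbours held in 3 to 5 of the 5. In the knockout the order was Lce1a1, Lce1d, Lce1f, Lce1c, Lce1a2, Lce1b, Lce1g, Lce1e, Lce1h and Lce1k, from 371 to 9.33 FPKM, and only Lce1h and Lce1k, the last 2, had ranges apart.

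Across the whole table, limma on log2(FPKM + 1) called 565 genes lower and 900 higher in the knockout at an adjusted p under 0.05, which is 4.96% and 7.9% of the 11386 genes tested. Of those called, 61.4% were higher, against 46.6% with scaling by median ratios and 47.9% with quantile normalization. All 10 Lce1 genes passed the filter of 1 FPKM in at least 5 libraries in wild type alone, and 6 of them were among the genes called lower (Lce1a1, Lce1a2, Lce1b, Lce1c, Lce1d and Lce1k). In 442 genes, 3.88% of those tested, every knockout library was below every wild-type library, and these held 4 of the 10 (Lce1a2, Lce1b, Lce1c and Lce1k). The genes were selected on this contrast, so nothing is read from these counts. The median log2 difference was -1.51 over the 10 and 0.06 over all genes tested. The number called moved when single libraries were left out, as did the number in the whole table. Without wild-type libraries 1 to 5 in turn, 2, 6, 3, 4 and 1 of the 10 were called. The whole table then had 858, 1770, 1370, 1424 and 793 genes called. Without knockout libraries 1 to 5 in turn, 6, 2, 3, 8 and 2 of the 10 were called. The whole table then had 1004, 1165, 980, 1430 and 898 genes called. Without knockout library 1 the median of the 10 was -1.10. With the score of fibroblast, muscle and endothelial markers as a covariate, 0 of the 10 and 22 genes of the table were called. The values of that score do not overlap between the genotypes. Under it the median was 0.31 and 9 of the 10 changed direction, all but Lce1k at -2.05. With the same score without Dcn, an alternative chosen after seeing the data, 4 of the 10 and 1228 genes of the table were called. The median was then -1.43. With the replicate number as a block, 2 of the 10 and 1324 genes of the table were called. The labels do not say whether the numbers pair the libraries.

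The 4 Lce1 genes outside the selection all had negative log2 differences, with a median of -0.96, and 0 of the 4 passed the test. Lce1m, the last of the cluster and the most distant in sequence, was 75.3, 102, 36.7, 37.7 and 77 FPKM in wild-type libraries 1 to 5 and 2.9, 6.63, 24.9, 49.7 and 19.2 in the knockout, with knockout library 4 above 2 wild-type libraries (log2 difference -2.03, SE 0.65, limma adjusted p = 0.0666). Lce1l was at -0.99 (SE 0.56, limma adjusted p = 0.262) and Lce1i at -0.94 (SE 0.63, limma adjusted p = 0.348). Lce1j was at -0.15 (SE 0.45, limma adjusted p = 0.862), from 185 ± 75.4 to 189 ± 113 FPKM (n = 5 each). Lce1j lies next to Lce1k on the chromosome, so neighbours in the cluster had the smallest and the largest log2 difference of the 14.

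The remaining LCE genes in the table, Lce3a to Lce3f and Lce6a, had 0 of 7 called, with a median log2 difference of 0.15. Lce3 genes are known for their rise in injured or inflamed squamous epithelium. Lce3a was 1994 ± 551 FPKM in wild type and 1937 ± 416 in the knockout (log2 difference -0.03, SE 0.20, limma adjusted p = 0.953, n = 5 each). Lce3d had the largest log2 difference of these, 0.61 (SE 0.27, limma adjusted p = 0.149). Kprp and 2310050C09Rik, which lie among the Lce1 genes, were at -0.69 (SE 0.53) and -1.22 (SE 0.88), and Crct1, on the far side of Lce3f, was at 0.08 (SE 0.17), none of them called.

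**Figure D2:**
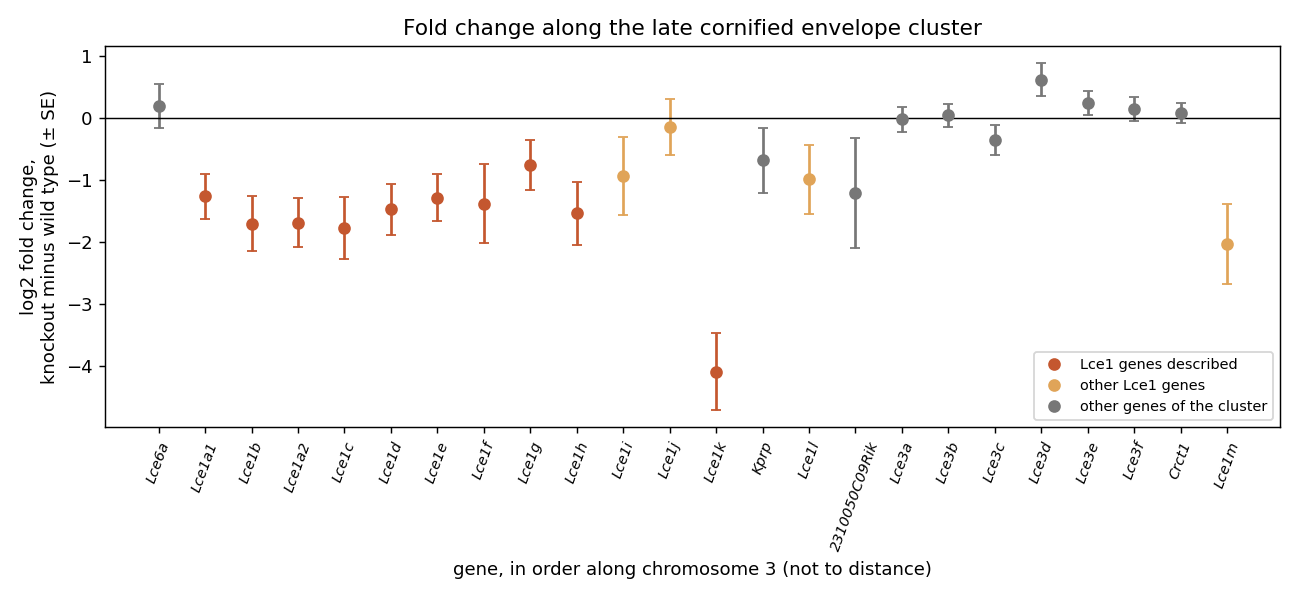
Log2 fold change on log2(FPKM + 1), knockout minus wild type, with its SE, for 24 genes in their order along chromosome 3; spacing is not to distance, and colours separate the 10 Lce1 genes described, the other 4 Lce1 genes and the remaining genes. The 10 lie between -0.76 and -4.09, while Lce3a to Lce3f lie between -0.36 and 0.61.

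The Lce1 genes varied strongly between knockout libraries. The highest knockout library was 4.85 to 27.2 times the lowest over the 10 genes (median 7.11), against 1.71 to 3.99 times in wild type (median 2.03). Knockout library 1 was the lowest for 10 of 10 genes and knockout library 4 the highest for 9, with library 2 the highest for Lce1k. In wild type, library 5 was the highest for 10 of 10, and the lowest library was 2 or 4 for 4 genes each and 3 for 2 genes.

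This spread was shared by the family. For the deviation of each library from the mean of its genotype, over 10 libraries, the 45 pairs of the 10 genes had a median Pearson r of 0.95 (0.62 to 0.99) and a median Spearman rho of 0.85 (0.39 to 0.99). Pairs with Lce1k had a median r of 0.77 (0.62 to 0.86) and pairs without it 0.95 (0.82 to 0.99). The part of shared sequence in these values was not tested: 9 of the 10 share at least 0.2 of their 31-base sequences with another gene, up to 0.477 for Lce1h, and how fragments matching several genes were counted is not given in the sources used here. Lce1k shares 0.132, and none of the 10 has a 150-base stretch in common with another gene. Levels of the 9 genes are therefore uncertain where copies could trade fragments.

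**Figure D3:**
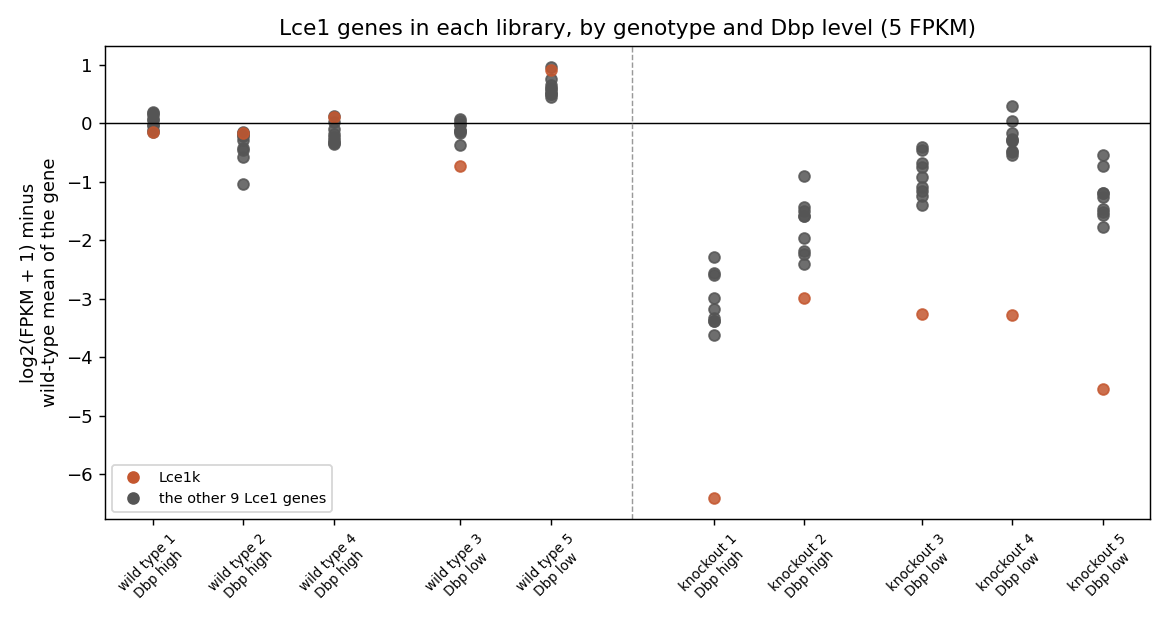
Log2(FPKM + 1) of each Lce1 gene minus its wild-type mean, in each library, ordered by genotype and by whether Dbp is above (high) or below (low) 5 FPKM; each point is a gene, and Lce1k is coloured. In the knockout the 9 other genes are lowest in library 1 and highest in library 4, while Lce1k is highest in library 2 and lies below the other 9 in each of the 5.

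The genes most like the Lce1 mean, by Pearson r of the same deviations among tested genes with a mean of at least 5 FPKM, were Rapgef4 (0.98), an exchange factor for Rap proteins activated by cyclic AMP, Lce1l (0.97), Ubl3 (0.97), 2310050C09Rik (0.97), Krt78 (0.97), a type II keratin, and Samd8 (0.96), a sphingomyelin synthase related protein. Of these, Lce1l and 2310050C09Rik belong to the same cluster. The most opposed were Srp72 (-0.93), part of the signal recognition particle, Marcksl1 (-0.93) and Apeh (-0.92). Krt78 was 721, 683, 702, 613 and 942 FPKM in wild-type libraries 1 to 5 and 173, 294, 436, 606 and 452 in the knockout, so that it too was highest in wild-type library 5, lowest in knockout library 1 and highest among knockouts in library 4. It fell by 1.00 on the log2 scale (SE 0.28, limma adjusted p = 0.0385, every knockout library below every wild-type library), and up to 0.0988 when a single library was left out, with the call lost without wild-type library 1, 2, 3 or 5 or knockout library 2, 3 or 5.

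Of the other late genes of the complex, only Kprp, Rptn, Lor and Hrnr are given here, chosen after their values were seen. Their r values with the Lce1 mean deviation were 0.49 to 0.91. Kprp, a keratinocyte proline-rich protein, was at 0.91, Rptn, a fused-type S100 protein, at 0.88, Lor, loricrin, the main envelope protein of skin, at 0.82, and Hrnr, a further fused-type S100 protein, at 0.49. Lor was 1804, 634, 1856, 2102 and 2426 FPKM in wild type and 452, 842, 1805, 1802 and 1550 in the knockout, so it was low in knockout library 1, like the Lce1 genes, and in wild-type library 2. Lce3a to Lce3f had r values of 0.06 to 0.47, and Krt13 had -0.10.

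**Figure D4:**
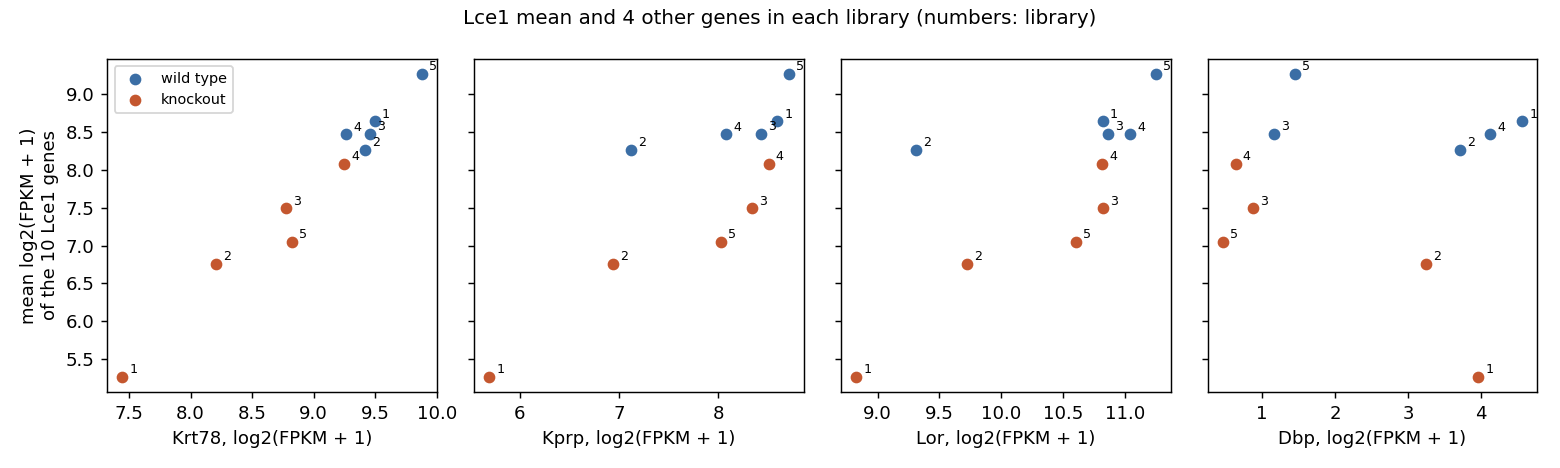
Mean log2(FPKM + 1) of the 10 Lce1 genes against log2(FPKM + 1) of Krt78, Kprp, Lor and Dbp in each library; points are libraries, numbered within wild type and knockout. Knockout library 1 is lowest on both axes for Krt78, Kprp and Lor, and Dbp separates wild-type libraries 3 and 5 and knockout libraries 3, 4 and 5 from the rest.

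Libraries also differed in Dbp, an output gene of the circadian clock, which was 22.6, 12, 1.25, 16.4 and 1.73 FPKM in wild-type libraries 1 to 5 and 14.5, 8.45, 0.84, 0.56 and 0.38 in the knockout. The r of Dbp with the Lce1 mean deviation was -0.68. The labels give no time of day, and the part of the clock in the Lce1 levels was not tested. Within the libraries above 5 FPKM of Dbp (3 wild type, 2 knockout) the median log2 difference of the 10 genes was -2.40 (-4.62 to -1.37), and every knockout value was below every wild-type value for 10 of 10. Within those below 5 FPKM (2 wild type, 3 knockout) the median was -1.19 (-3.79 to -0.55), with no overlap for 7 of 10. The share of all tested genes without overlap in these splits was not computed, and the 10 genes were selected on this contrast. Nothing is read from these counts. With a clock score as covariate 10 of the 10 were called and the median was -2.06. Under it 1367 of the 11386 genes tested were called, 485 of them lower, and the 10 genes were selected on this contrast.

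Wild-type library 5 and knockout library 4, which had the highest Lce1 sums of their groups, also had the highest Dcn, at 13.6 and 1.12 FPKM, and the highest Krt1, a keratin of skin, at 12.7 and 6.4 FPKM. Krt1 was 0.61 to 5.32 FPKM in the other wild-type libraries and 0.02 to 0.05 in the other knockouts. Flg, filaggrin, was also highest there, at 10.6 and 6.23 FPKM. Krt10, a further keratin of skin, was instead highest in library 3 of each genotype, at 389 and 174 FPKM. It was 49.9 FPKM in wild-type library 5 and 16.6 in knockout library 4. Lor was highest in wild-type library 5, at 2426 FPKM, but in knockout library 4 it was 1802, against 1805 in knockout library 3. Krt2, a further skin keratin, was at 0 in all libraries, and the 5 skin markers, of which Lor is by far the highest, summed to 643 to 2500 FPKM in wild type and 470 to 1980 in the knockout. Their part in the Lce1 levels was not tested.

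Other genes of the cornified envelope were called in both directions. The lists of genes were drawn up with earlier results of these data known, and each is given by its counts. Over all tested genes 4.96% were called lower and 7.9% higher. The small proline-rich proteins, crosslinked bridges of the envelope, had 7 of 15 tested genes higher and 0 lower, with a median log2 difference of 2.47. Sprr1a was 319, 403, 398, 348 and 235 FPKM in wild-type libraries 1 to 5 and 770, 828, 2291, 1392 and 1713 in the knockout, with all knockouts above all wild types. It rose by a log2 difference of 1.94 (SE 0.29, limma adjusted p = 0.00129). Sprr2a3 (3.96, limma adjusted p = 2.57e-05), Sprr2f (5.34, 0.0016), Sprr2g (5.15, 0.00181) and Sprr2h (4.69, 0.00693) rose as well, and Sprr2 genes are near copies of each other.

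Of the fused-type S100 genes, large envelope and keratin-binding proteins, 1 of 4 tested fell and 0 rose, with a median of -1.08. It was Hrnr, hornerin, at 93.5, 133, 104, 52.5 and 92.6 FPKM in wild type and 21.8, 32.2, 24.3, 61.4 and 36.9 in the knockout (log2 difference -1.44, SE 0.29, limma adjusted p = 0.00882), where knockout library 4 was above wild-type library 4. Of 17 tested genes of the envelope scaffold and its crosslinking, 2 rose and 2 fell, with a median of -0.02. Cstb, the protease inhibitor cystatin B, rose by 0.79 (SE 0.16, limma adjusted p = 0.00783) and Cnfn, cornifelin, by 0.50 (SE 0.15, limma adjusted p = 0.0444). Stfa1, a stefin, fell by 1.82 (SE 0.34, limma adjusted p = 0.00628) and Ivl, involucrin, at a low level, by 1.09 (SE 0.31, limma adjusted p = 0.0416). Lor did not pass the test (1764 ± 678 and 1290 ± 612 FPKM, n = 5 each). The call of Cnfn was lost on leaving out any library but knockout library 1, with adjusted p up to 0.107, and that of Ivl without wild-type library 1, 3 or 5 or knockout library 1, 2, 4 or 5, with adjusted p up to 0.0909.

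Among 24 tested genes of epidermal keratinization, 7 fell and 0 rose, with a median of -0.34. Over all tested genes 4.96% were called lower, and this list was drawn up with earlier results known. All 7 had every knockout library below every wild-type library, as had 3.88% of all tested genes. Calm4, a calmodulin-like protein of keratinocytes, was 1844, 2516, 2279, 1756 and 2483 FPKM in wild-type libraries 1 to 5 and 251, 713, 1148, 1050 and 1017 in the knockout (log2 difference -1.54, SE 0.36, limma adjusted p = 0.019, and 0.053 without wild-type library 5). Klk5, a proteinase of desquamation, was 16, 10.2, 15, 16.4 and 21.1 FPKM in wild type and 0.4, 0.37, 1.13, 7.92 and 3.38 in the knockout (log2 difference -2.57, SE 0.48, limma adjusted p = 0.00664). Both genes were lower in every knockout library than in any wild-type library. Klk7, a partner proteinase, fell by 1.84 (SE 0.45, limma adjusted p = 0.0253, and up to 0.0606 with the call lost without wild-type library 1 or 5 or knockout library 2). Dsg1a, a desmosomal cadherin of upper layers, fell by 1.33 (SE 0.16, limma adjusted p = 2.73e-04), and Krt23, a type I keratin, by 0.81 (SE 0.14, limma adjusted p = 0.00258). Dsg1b, of the same list and named after its values were seen, was at -0.04 (SE 0.13, limma adjusted p = 0.883).

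Genes of the mucosal suprabasal list had 3 of 13 higher and 0 lower, with a median of 0.42. They were Mal, a membrane protein of apical transport (log2 difference 3.47, SE 0.75, limma adjusted p = 0.0167), and the membrane proteinases Tmprss11e (0.85, SE 0.20, limma adjusted p = 0.0184) and Tmprss11d (0.49, SE 0.14, limma adjusted p = 0.0393). Without wild-type library 5 the adjusted p of Tmprss11e was 0.0515 and that of Tmprss11d 0.103, and both calls were also lost without wild-type library 1, and that of Tmprss11d without wild-type library 4 or knockout library 1, 2, 3 or 5.

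Of 28 tested regulators of late differentiation, 2 rose and 2 fell, with a median of 0.01. Trp63, which encodes p63, was 38.4, 38.1, 31.2, 46.5 and 40 FPKM in wild type and 27.9, 23.4, 22.6, 20.9 and 18.2 in the knockout, with no overlap (log2 difference -0.76, SE 0.13, limma adjusted p = 0.00293). Only the knockout is labelled with the Cre named for p63, so an effect of that allele on Trp63 cannot be told apart from one of the kinases. Rora, a nuclear receptor of the ROR family, fell by 1.23 (SE 0.14, limma adjusted p = 1.55e-04). Junb, a subunit of AP-1, rose by 0.63 (SE 0.16, limma adjusted p = 0.0278), and Cebpb by 0.66 (SE 0.19, limma adjusted p = 0.0419). Both of these calls were lost without wild-type library 1 or 5 or knockout library 2, 3 or 5, and that of Cebpb also without knockout library 1 or 4, with adjusted p up to 0.0714 and 0.103.

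NRF2, the factor of the antioxidant response, is known to act on late envelope genes of skin, so its targets were examined. Of 22 tested targets, 2 rose and 2 fell, with a median of 0.19. Gsta1 rose by 0.82 (SE 0.16, limma adjusted p = 0.00697) and Tkt by 0.64 (SE 0.16, limma adjusted p = 0.0201). Me1 fell by 0.73 (SE 0.12, limma adjusted p = 0.00209) and Hmox1 by 0.92 (SE 0.24, limma adjusted p = 0.0267). The call of Tkt was lost without wild-type library 5 or knockout library 5 (adjusted p up to 0.0512) and that of Hmox1 without wild-type library 1 or 5 or knockout library 1, 2 or 5 (up to 0.0709). Over the lists, 17 of the 30 genes called held their call in each of the 10 fits that left out a library. With the marker score that includes Dcn as a covariate 0 of the 30 were called, beside 22 genes of the table.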

How the data were processed

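RNA of mouse esophageal epithelium, separated with Dispase, was sequenced as 150-base read pairs in 5 wild-type and 5 knockout libraries. The authors deposited 1 table of FPKM values for 56691 Ensembl genes. The tools named in the submitters' processing notes are HISAT2 2.0.1, cutadapt and HTSeq 0.6.1, with mm9 as the build. Neither the annotation, nor the use of strand, nor the treatment of fragments that match several genes is stated there, so copies and antisense genes cannot be told apart with certainty. In GENCODE M21 no exon of another gene overlapped an LCE gene on either strand. The members and lists were chosen with earlier results of these data known.

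Depth was estimated from values of single-exon genes up to 1200 bases long, of which 96% to 98.2% were whole fragments within 0.01 at the best total, against 9.4% to 11.2% by chance. It sets the precision of low values. The 11386 genes that reached 1 FPKM in 5 or more libraries were tested on log2(FPKM + 1), which understates changes of low genes, with limma 3.58.1 in R 4.3.3 (genotype as the only term, trend and robust estimation, Benjamini-Hochberg adjustment over all of them, threshold 0.05), which was tested on simulated data. Named genes were the 10 members, the other LCE genes, up to 5 of each list by smallest p, and the 6 most positively and 3 most negatively correlated genes. Positions and sequences are from GENCODE M21 on GRCm38 and RefSeq on GRCm38.p6, which are not the build of the table. Identities, words and motifs were computed in Python 3.11.15 with Biopython 1.88. Alternatives were other pseudocounts, filters, scalings and covariates, a replicate block and leaving out each library.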

Additional observations from a re-analysis of the deposited data

Results flagged for a closer look

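Among 50 groups of 5 libraries (Lce1 and related genes in each genotype), 4 had a library set apart from the others by a gap above Dixon's critical value of 0.71, and chance gives about 1 in 20. Wild-type library 5 was at 317.8 FPKM for Lce1j (the other wild-type libraries at 138.9 to 173.5) and at 201.2 FPKM for Lce1l (the others at 101.5 to 120.6). It was also the highest wild-type library for all 10 Lce1 genes described. Knockout library 2 was at 2652 FPKM for Lce3a (the others at 1567 to 1855), and wild-type library 3 at 495.8 FPKM for Lce3d (the others at 212.3 to 263.1).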

How the results depend on the processing

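The median log2 difference of the 10 Lce1 genes, -1.51, stayed between -2.06 and -1.43 under other pseudocounts, filters, scalings, variance settings, the replicate block, the clock score and the marker score without Dcn, an alternative chosen after seeing the data. With the marker score that includes Dcn it was 0.31, and Lce1a1 was at 0.29, Lce1a2 0.03, Lce1b 0.02, Lce1c 0.18, Lce1d 0.33, Lce1e 0.33, Lce1f 1.22, Lce1g 1.00 and Lce1h 0.70. That score does not overlap between the genotypes, so it cannot be told apart from genotype. Under it 22 genes of the table, 0 of the 10 Lce1 genes and 0 genes of the lists were called. Within libraries of high Dbp the median was -2.40, and with Lce1k alone, the gene that shares less than 0.2 of its sequence, it was -4.09. With no filter on low values 2 of the 10, 17 list genes and 977 genes of the table were called, and the reason was not tested. The clock score gave 10 of the 10, beside 1367 genes of the table, and the cause was not tested. Leaving out each library in turn gave medians of -1.82 to -1.10, 1 to 8 of the 10 called, 17 to 32 list genes called against 30, 793 to 1770 genes called in the table against 1465, and a median correlation between the Lce1 genes of 0.88 to 0.96 against 0.95.

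With the replicate block 2 of the 10 and 1324 genes were called. The numbers are shared between genotypes by label only: deviations of libraries of the same number correlated at -0.24 to 0.42, over 0.1 in 3 of 5 pairs, and 1 of 5 wild-type libraries correlated best with its own number. Depth limits Lce1k in knockout library 1, where about 5 fragments were counted.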

Other observations

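Krt10, a suprabasal keratin of skin, did not follow the Lce1 genes between libraries. It was 14.3, 7, 389, 74.7 and 49.9 FPKM in wild-type libraries 1 to 5 and 17.2, 10.4, 174, 16.6 and 37.7 in the knockout, highest in library 3 of each genotype, and its deviations had an r of 0.20 with the Lce1 mean. Krt15, a basal keratin, was 1119, 1368, 516, 860 and 713 FPKM in wild type and 1382, 1460, 574, 838 and 737 in the knockout, lowest in library 3 of each genotype, with an r of -0.55. These genes were chosen after their values were seen.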
